A study of Mus musculus with 12 samples.

Results

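The values described here are the difference of differences between *Fabp3*-null (F3-KO) and wild-type (WT) mouse hearts: how far the response to transverse aortic constriction (TAC) in F3-KO hearts departed from the response in WT hearts, gene by gene. All 12 hearts of the study entered it, 3 in each of 4 groups, and 14094 of the 19308 genes in the count table passed a filter on low counts and were tested. The mice were of the C57BL/6 strain, and surgery was performed at 8 weeks of age. In TAC the aortic arch is tied off around a needle that is then withdrawn, so that the left ventricle ejects against a raised pressure, and sham surgery leaves out the constriction. The groups were WT hearts after sham, WT hearts after TAC, and hearts of mice with a global CRISPR-Cas9 knockout of *Fabp3* after sham and after TAC, all taken 1 week after surgery. The study describes WT littermates as controls, and the sources used here do not say how many lines of the knockout were bred. RNA came from hearts frozen at collection.

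FABP3 is the fatty acid binding protein of heart muscle, which carries long-chain fatty acids through the cytosol towards the mitochondria, where most of the energy of the adult heart is made. Under pressure overload the heart grows, turns on natriuretic peptides and fetal contractile genes, lays down collagen, and often lowers its genes for fatty acid oxidation and oxidative phosphorylation. The interaction is written here as a log2 value: the TAC response (TAC less sham) of F3-KO hearts, less that of WT hearts. A value above 0 means that the gene's TAC response lay higher in F3-KO hearts, and a value below 0 that it lay lower; the same number is also the genotype difference after TAC less the genotype difference after sham.

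Total counts per heart were 10424334 to 14372011. *Fabp3*, the gene knocked out, still had counts in all hearts. It stood at 2849, 2432 and 2117 CPM (counts per 1000000, TMM-normalized) in WT sham hearts and 1089, 1040.1 and 1066 CPM in F3-KO sham hearts, and at 3064, 2887 and 2904 CPM and 1143, 1002 and 1014 CPM after TAC. All 6 F3-KO hearts lay below all 6 WT hearts, and its interaction on the log2 scale was -0.28 (standard error 0.21). The hearts F3-KO TAC replicates 2 and 3 stood apart in traces of other tissues. Their summed liver markers reached 221 and 305 CPM (scaled by library total) against 40.3 to 85.4 CPM in the other 10 hearts. *Alb*, the albumin gene of hepatocytes, was at 58.9 and 86.4 CPM there and at most 0.0824 CPM elsewhere. The same 2 hearts held 2.05 and 1.25 CPM of lung and airway markers, which made up 28.7 to 43.1 CPM in the others. Family values without both hearts are therefore given with the main results, and F3-KO TAC replicate 1 then stands alone in its group, with a spread taken from the other groups. F3-KO TAC replicate 2 also held more of the atrial markers *Myl7* (9.32 CPM by library total) and *Myl4* (15.1 CPM). So did F3-KO sham replicate 2 (8.15 and 14.2 CPM), and the other hearts held at most 2.67 and 4.93 CPM. *Kcnj3* and *Stard10*, of the same marker list, were not raised in either heart.

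No gene passed the test of the interaction. With edgeR's quasi-likelihood test of all 14094 genes and Benjamini-Hochberg adjustment, 0 genes (0%) reached an adjusted p under 0.05, and the lowest adjusted p was 0.652. At an unadjusted p under 0.05 there were 632 genes, 4.48% of those tested, where a share of 0.05 of all genes would be 704.7. Of these, 325 (2.31%) had an interaction above 0 and 307 (2.18%) below 0. Scaled by library totals instead of TMM factors, 851 genes were there, 685 of them above 0, and the median interaction of all genes was 0.16 in place of 0.03, so values below are read against the median of all genes. The error was wide: the median standard error of an interaction was 0.29 and the median absolute interaction 0.22 (both log2), since the contrast carries the spread of 4 groups of 3. Apart from *Pax6os1*, every gene named below had an adjusted p of 0.954 or above in edgeR, so interactions are given with their standard error (SE) and compared between hearts. DESeq2's Wald test called 6 genes (709 at an unadjusted p under 0.05), limma-trend called 1 (605), and limma-voom with sample quality weights called 0 (1453). In counts simulated with 199 changed genes, DESeq2 recovered 127 and made 34 false calls, where edgeR recovered 91 and made 6. With no gene changed, DESeq2 made 3 false calls and edgeR 0. Calls by DESeq2 alone are therefore to be read with caution.

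Genes chosen by a large difference between 2 responses will often have responses of opposite sign, so the forms that the 632 genes took are given as a description. In 266 of them (42.1%, and 19.8% of all genes) the response was negative in WT and positive in F3-KO hearts. In 261 (41.3%, and 17% of all genes) it was the reverse. A response of the same sign but larger in F3-KO hearts was found in 53 with an interaction above 0 and 40 below. These were 8.39% and 6.33%, and 22.1% and 17.9% of all genes. A smaller one was found in 6 of each direction (0.949% each, and 12.3% and 11% of all genes). In 263 of the 632 (41.6%, and 41.9% of all genes) the genotype difference was larger after sham than after TAC. For these the sham hearts hold the larger part of the difference of differences. Each single contrast had its own share of genes at an unadjusted p under 0.05: 6.28% for TAC in WT hearts, 17.1% for TAC in F3-KO hearts, 6.02% for the genotypes after sham and 10% after TAC.

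The gene with the lowest p was *Pax6os1*, a non-coding RNA transcribed opposite *Pax6*. It rounded to 0 counts in all 3 F3-KO sham hearts, but stood at 13.2, 28.7 and 10.3 CPM in WT sham hearts, 7.53, 21.8 and 48.1 CPM in WT TAC hearts and 52.6, 33.6 and 45.9 CPM in F3-KO TAC hearts. On this scale the F3-KO TAC mean was at least 168-fold above a floor of 3 counts in each F3-KO sham library, while in WT hearts TAC gave 1.48 times the sham mean. DESeq2 (adjusted p = 3.50e-08) and limma-trend called it, and edgeR did not (adjusted p = 0.652). The sources used here do not say whether counting used the strand, so reads of *Pax6* itself cannot be told apart from it. *BGIG10090_47664*, listed by that identifier alone, rested on few counts: 6, 17 and 6 in WT sham hearts, 0, 0 and 4 in F3-KO sham hearts, 0 in every WT TAC heart and 3, 136 and 15 in F3-KO TAC hearts. DESeq2 called it (adjusted p = 0.0126), and F3-KO TAC replicate 2 alone holds most of these counts.

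Of the genes with larger counts, *Rrad* had the lowest p on the higher side. It encodes the small GTPase RAD, which restrains the L-type calcium channel of heart muscle. WT sham hearts held 192, 189 and 269 CPM, above all 9 other hearts, and F3-KO sham hearts 81.9, 75.1 and 48.1 CPM. TAC hearts held 59.9, 76.8 and 103 CPM in WT and 72.2, 124 and 84.2 CPM in F3-KO mice. The TAC response was thus -1.44 in WT hearts and 0.45 in F3-KO hearts, and the interaction 1.89 (SE 0.38), with a call by DESeq2 alone (adjusted p = 0.00436). The TAC groups overlapped, and the genotypes differed by -1.66 after sham against 0.23 after TAC. *Bambi*, a decoy receptor that dampens TGF-beta and BMP signals, also had its highest sham values in WT hearts. Its 6 sham hearts held 18.1, 16.9 and 23.2 CPM in WT and 11.3, 13.1 and 11.6 CPM in F3-KO mice, and its TAC hearts 11.8, 12.9 and 14.1 and 22.2, 18.9 and 14.7 CPM. Here the order of the genotypes turned over between sham and TAC without overlap in either, with an interaction of 1.21 (SE 0.25).

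On the lower side *Arrdc2*, which encodes an arrestin-domain protein, turned over in the opposite direction. It was at 31.5, 19.3 and 17.8 CPM in WT sham and 60.7, 38.9 and 57.1 CPM in F3-KO sham hearts. After TAC the WT hearts held 79.2, 45.6 and 44.4 CPM and the F3-KO hearts 20.3, 22.6 and 37.5 CPM. The F3-KO hearts were all above the WT hearts after sham and all below them after TAC, with an interaction of -2.27 (SE 0.44). *Fam117b* differed mainly in the shams: 22.7, 29.7 and 28.964 CPM in WT and 67.2, 56.3 and 72.3 CPM in F3-KO sham hearts, against 86.5, 45.6 and 59.8 CPM and 51.2, 56.3 and 55.8 CPM after TAC. Its interaction was -1.50 (SE 0.29). *Snrk*, a kinase of the AMPK family, was at 126, 139.8 and 134 CPM in WT sham and 198, 189 and 187 CPM in F3-KO sham hearts, and TAC hearts overlapped at 167, 171 and 157 CPM and 133, 128 and 161 CPM, for an interaction of -0.75 (SE 0.16). DESeq2 called all 3 (adjusted p = 0.00375 for *Arrdc2*, 0.00439 for *Fam117b* and 0.00375 for *Snrk*), and edgeR called none of them (adjusted p = 0.954). With 1 heart left out, the interaction lay between -2.59 and -1.95 for *Arrdc2*, -1.69 and -1.22 for *Fam117b* and -0.86 and -0.69 for *Snrk*. These genes were picked by p in the same hearts.

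The other genes among the 10 lowest p on each side, adjusted p = 0.954 in edgeR for every one, were moderate in level. Those above 0 were *Prps2*, a phosphoribosyl pyrophosphate synthetase (0.78), the transcription factor *Zeb2* (0.79), *Psd3* (0.75), the carbonic anhydrase *Car7* (1.07), *Klhl34* (1.54) and *Ogfrl1* (0.57). In each of these the F3-KO TAC response of every heart lay above that of every WT heart, as is likely for genes picked by p in the same hearts. Those below 0 were *Cntfr*, the ciliary neurotrophic factor receptor (-1.999), *P2ry14*, a receptor for UDP-sugars (-1.30), *Snrpn* (-1.08, a gene that overlaps *Snurf*), the repressor *Irf2bp2* (-0.86), the methyl-CpG-binding gene *Mbd1* (-0.73), *Abca4* (-2.47) and *Trp53rka* (-0.78). Responses that do not overlap between the genotypes were found in 16.6% of all genes tested, 9.13% higher and 7.47% lower in F3-KO hearts. *Irf2bp2* is an example that came from the TAC hearts: 76.8, 76.3 and 82.7 CPM in WT sham, 103, 76.9 and 95.9 CPM in F3-KO sham and 64.3, 78.3 and 83.5 CPM in WT TAC hearts overlapped, and F3-KO TAC hearts were below all of them at 46.1, 46.4 and 53.4 CPM. *Abca4* had the same form at a low level, with 1.37, 1.98 and 1.65 CPM in F3-KO TAC hearts and at least 2.98 CPM in every other heart. Of the 632 genes at an unadjusted p under 0.05, 197 (94 above 0 and 103 below) stayed there with each of the 12 hearts left out in turn.

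**Figure D1:**
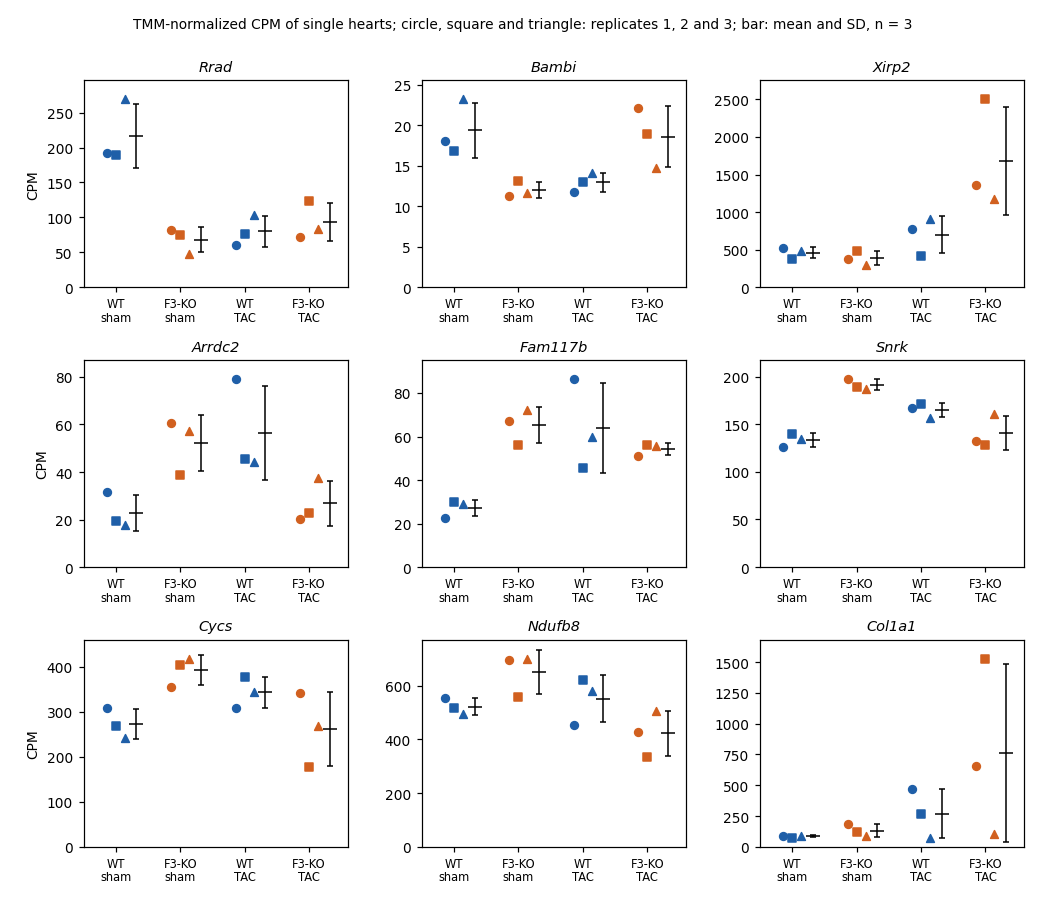
Expression of 9 genes in CPM (vertical axes, linear from 0) in every heart of the 4 groups (horizontal axes), with WT hearts in blue, F3-KO hearts in orange, and the mean and SD of each group of 3 as a bar. *Rrad*, *Fam117b* and *Snrk* differ between genotypes mainly after sham, *Bambi* and *Arrdc2* change order between sham and TAC, and *Col1a1* ranges from 103 to 1529 CPM within the F3-KO TAC group.

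Gene families were then described by the median interaction of their tested members, beside a median of 0.03 over all genes, of which 54.2% lay above 0. Of 29 families, 18 had a median below 0 and 11 above 0. The families furthest below 0 were those of the mitochondrion, and the families furthest above 0 were cell cycle, matrix and interferon-response genes. With each of the 12 hearts left out, 14 of the families below 0 kept the sign of their median. Of the families above 0, only matrix enzymes with small proteoglycans (lowest median 0.04) and interferon-response genes (0.19) kept theirs. Per heart, the response of a family is the mean log2 CPM of its genes less the mean of the 3 sham hearts of the same genotype. In 3 of the 29 families the responses of the 3 F3-KO TAC hearts did not overlap with those of the 3 WT TAC hearts: complex III, complex IV and ATP synthase subunits, fatty acid uptake, trafficking and lipolysis genes, and energy transfer and antioxidant genes. In all 3 the F3-KO hearts were the lower ones. Of all single genes tested, 16.6% had responses without overlap, and 7.47% were lower in F3-KO hearts. A count of 3 in 29 is therefore not by itself a result about these families. In energy transfer and antioxidant genes the nearest hearts of the 2 genotypes lay at -0.04 and -0.05. With library totals the medians were -0.38 for complex I, -0.38 for the other complexes, -0.18 for mitochondrial ribosomal proteins, 0.60 for collagens and 0.79 for cell cycle genes, beside 0.16 for all genes, so the order of these families was the same on that scale. Genes of high level lay lower as a whole: the 104 genes with a mean of 1000 CPM or more had a median interaction of -0.28 and 14 of them lay above 0, against -0.08 for the 1681 genes from 100 to 1000 CPM and 0.16 for the 4046 genes from 1 to 10 CPM.

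**Figure D2:**
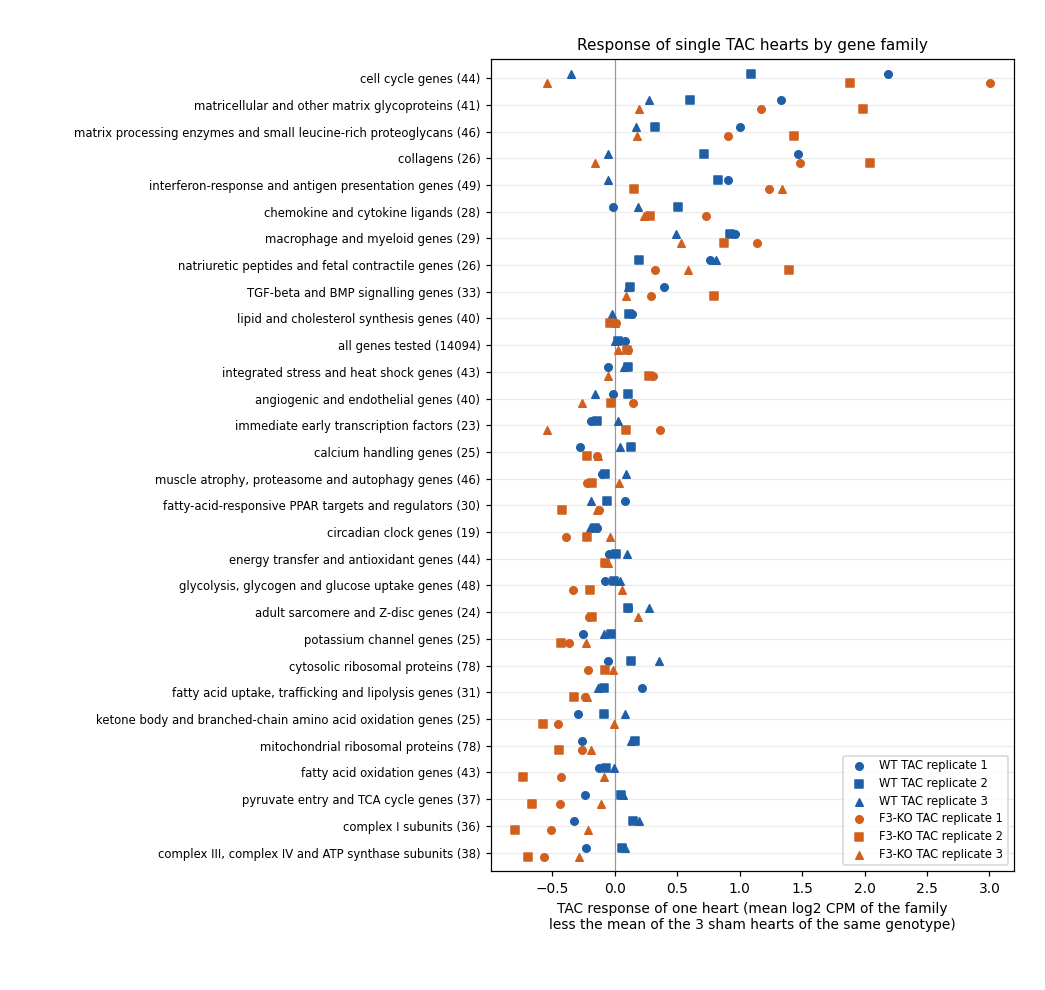
Response of each of the 6 TAC hearts (horizontal axis, mean log2 CPM of a family less the mean of the sham hearts of its own genotype) for 29 gene families and all genes, ordered by median interaction with the number of tested genes in brackets. In the mitochondrial families at the bottom most F3-KO hearts (orange) lie to the left of the WT hearts (blue), with WT heart 1 among them in some, while at the top replicate 3 of each genotype stays near 0 or below in cell cycle genes and collagens.

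The genes of oxidative phosphorylation, which encode the respiratory chain complexes and the ATP synthase, had the lowest medians among the 29 families. Of 36 tested complex I subunits 0 lay above 0, and of 38 subunits of complex III, complex IV and ATP synthase 1 did. The median was -0.51 in each family. In WT hearts the median TAC response was 0.03 and 0.03, and in F3-KO hearts -0.49 and -0.50. After sham these genes were higher in F3-KO than in WT hearts by a median of 0.16 and 0.14, and after TAC the median difference was -0.38 and -0.36, so both surgeries entered the difference. At an unadjusted p under 0.05 there were 9 of 36 and 9 of 38 genes, all below 0, where 2.18% of all genes tested were. Among all genes of high level it was 66 of 1681 from 100 to 1000 CPM and 11 of 104 at 1000 CPM or more. None was called by any of the 4 tools.

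*Cycs*, the gene of cytochrome c, which carries electrons from complex III to complex IV, had the lowest p of these families. It was at 309, 269 and 242 CPM in WT sham and 354, 405 and 418 CPM in F3-KO sham hearts, every F3-KO heart above every WT heart. After TAC it was at 309, 377 and 344 CPM in WT and 342, 177 and 267 CPM in F3-KO hearts, for an interaction of -0.91 (SE 0.29). *Ndufb8*, an accessory subunit of complex I, was at 556, 518 and 493 CPM and 695, 557 and 702 CPM in WT and F3-KO sham hearts. TAC hearts held 454, 623 and 581 CPM in WT and 428, 336 and 504 CPM in F3-KO mice, with F3-KO replicate 2 the lowest of all 12, and an interaction of -0.71 (SE 0.25). *Uqcrc1*, a core subunit of complex III, gave -0.65 (SE 0.28), and *Atp5g1*, which encodes a subunit of the membrane ring of ATP synthase, gave -0.72 (SE 0.27). The responses of the 2 genotypes did not overlap in any of these 4 genes. In others they overlapped: *Ndufs1* (-0.30, SE 0.29), *Ndufv1* (-0.45, SE 0.32), *Cox6a2* of complex IV (-0.58, SE 0.36) and *Atp5b* of ATP synthase (-0.46, SE 0.27) had smaller interactions for their error. The single exception above 0, named after its value was seen, was *Atp5a1* (1.76, SE 1.41). The table gave it a mean of 2.34 CPM where its partner *Atp5b* had 6486 CPM, 2 subunits of the same enzyme, so the value of *Atp5a1* is uncertain.

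Heart by heart, complex I subunits responded by -0.32, 0.15 and 0.19 in WT TAC hearts 1 to 3 and by -0.51, -0.80 and -0.22 in F3-KO TAC hearts 1 to 3. WT heart 1 went the way of the F3-KO hearts and overlapped with F3-KO heart 3. Subunits of complex III, complex IV and ATP synthase responded by -0.23, 0.06 and 0.08 in WT and by -0.56, -0.69 and -0.28 in F3-KO hearts, without overlap. By complex, the median was -0.52 for 10 genes of complex III, -0.49 for 13 of complex IV and -0.55 for 15 of ATP synthase. F3-KO heart 2 carried most of the difference and F3-KO heart 3 least: the median of complex I was -0.40 without F3-KO TAC replicate 2 and -0.68 without F3-KO TAC replicate 3. With F3-KO TAC replicate 1 alone it was -0.54, and for the other complexes -0.58. The F3-KO TAC group is then 1 heart, and the part of the liver transcripts in these values was not tested.

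Markers of heart muscle cells lay lower as well. Bulk RNA cannot tell fewer cells of a type from less RNA per cell, and the summed level of 11 ventricular cardiomyocyte markers (CPM by library total) was 67110.0 to 89900.0 in WT sham, 87370.0 to 92140.0 in F3-KO sham, 72000.0 to 92540.0 in WT TAC and 55300.0 to 67900.0 in F3-KO TAC hearts. In these sums every F3-KO TAC heart lay below every WT TAC heart. *Myh6* was the largest part of them, at 26570, 33550 and 18990 CPM in WT TAC and 23040, 15760 and 15330 CPM in F3-KO TAC hearts, also by library total. Single markers differed: *Tcap* was lower in every F3-KO TAC heart than in every WT TAC heart, and *Ttn* was not. *Ttn* stood at 4829, 3856 and 3896 CPM in WT TAC and 4394, 4995 and 5642 CPM in F3-KO TAC hearts. The median interaction of the markers was -0.47, with 1 of 11 above 0 and 3 at an unadjusted p under 0.05 (4.48% of all genes), and their mean responses were -0.12, 0.18 and 0.12 in WT and -0.47, -0.66 and -0.17 in F3-KO hearts. As for oxidative phosphorylation, WT heart 1 was the lowest of the WT hearts and F3-KO heart 2 the lowest of all 6. The part of heart muscle content in the mitochondrial interactions was not tested.

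**Figure D3:**
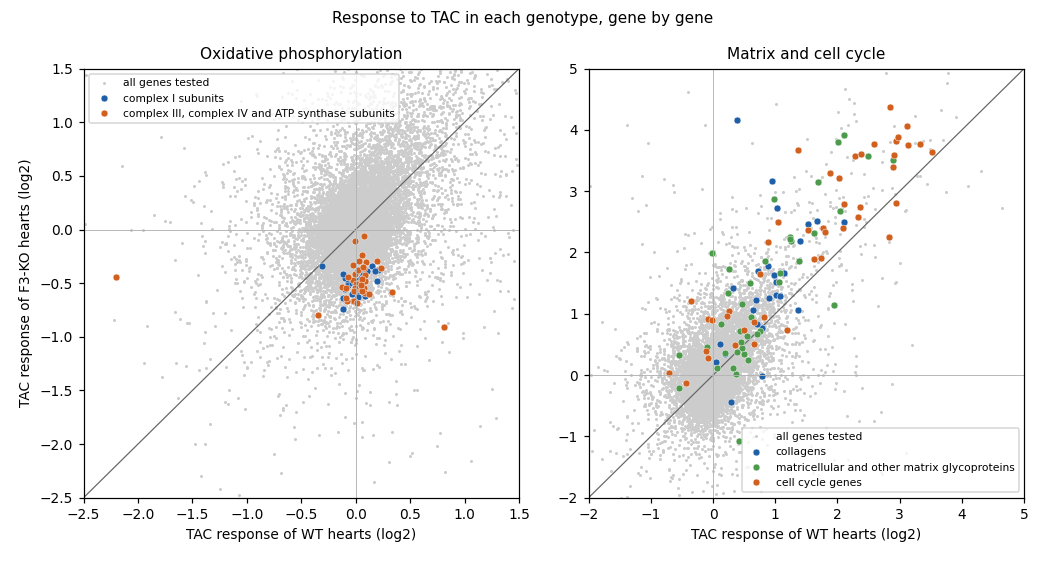
TAC response of WT hearts (horizontal axes) against F3-KO hearts (vertical axes), log2 from the edgeR model, for every gene tested (grey) and for named families (coloured), with the line of equal response; points beyond the axes are not drawn. Subunits of oxidative phosphorylation lie near 0 in WT hearts and near -0.50 in F3-KO hearts, below the line except *Atp5a1* at the left, and most matrix and cell cycle genes respond upwards in both genotypes and lie above the line.

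The other mitochondrial families lay on the same side with smaller values. Of 78 mitochondrial ribosomal protein genes, which serve translation inside the organelle, 77 lay below 0, with a median of -0.32 and 13 at an unadjusted p under 0.05. The 1 above 0, named after its value was seen, was *Mrpl50* (0.04), whose sign changed with the heart left out. *Mrpl22* had the lowest p (-0.53, SE 0.19), with 19.1, 26.7 and 25.9 CPM in WT TAC and 19.96, 17.6 and 18.5 CPM in F3-KO TAC hearts. Responses of this family were -0.26, 0.16 and 0.13 in WT and -0.26, -0.45 and -0.19 in F3-KO hearts: WT heart 1 fell among the F3-KO hearts, and without it the median was -0.43. With F3-KO TAC replicate 1 alone the median was -0.27. Pyruvate entry and TCA cycle genes had a median of -0.34 over 37 genes, of which 35 lay below 0 and 1, *Suclg1*, was at an unadjusted p under 0.05 (-0.70, SE 0.28). *Idh2* (-0.35, SE 0.45) and *Ogdh* (-0.27, SE 0.31), enzymes of the cycle, lay within 2 standard errors of 0. The family median was -0.21 without F3-KO TAC replicate 2, -0.57 without F3-KO TAC replicate 3 and -0.42 with F3-KO TAC replicate 1 alone. Over the 5 mitochondrial families together, 224 of 232 genes lay below 0, 34 of them at an unadjusted p under 0.05, against 307 of 14094 (2.18%) in the whole table. That share varied with level. It was 147 of 7587 genes from 10 to 100 CPM, 66 of 1681 from 100 to 1000 CPM and 11 of 104 above that. The genes of these families were measured in the same hearts, so their counts are not independent observations and test no genotype difference. By heart, the mean response of the 5 families together was -0.24, 0.08 and 0.10 in WT and -0.41, -0.63 and -0.18 in F3-KO hearts. The genotypes overlapped, with WT heart 1 below F3-KO heart 3.

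Fatty acid oxidation genes, the route that FABP3 feeds, had a median of -0.32 over 43 genes, 4 of them above 0. The 19 genes of the mitochondrial spiral had -0.43, the 13 of activation and the carnitine shuttle -0.28 and the 11 of peroxisomes -0.21. *Slc25a20*, the carnitine-acylcarnitine carrier of the inner membrane, had the lowest p: it was at 198, 166 and 180.4 CPM in WT sham, 229, 247 and 282 CPM in F3-KO sham, 199, 195 and 204 CPM in WT TAC and 156, 106 and 194 CPM in F3-KO TAC hearts. F3-KO hearts were the higher ones after sham and the lower ones after TAC, and the interaction was -0.87 (SE 0.26). *Etfb*, which passes electrons from the first step of the spiral to the respiratory chain, gave -0.85 (SE 0.36), and these were the 2 genes at an unadjusted p under 0.05 in the family, 4.65% of it beside 4.48% of all genes. *Cpt1b*, the gate of mitochondrial entry (-0.49, SE 0.26), *Hadha* (-0.67, SE 0.33), *Acadm* (-0.37, SE 0.35), *Mlycd* (-0.48, SE 0.33) and *Ech1* (-0.63, SE 0.46) had the same sign. Hearts responded by -0.13, -0.07 and -0.01 in WT and -0.43, -0.74 and -0.08 in F3-KO mice, so F3-KO heart 2 was the lowest and F3-KO heart 3 overlapped with WT hearts. The median was -0.17 without F3-KO TAC replicate 2 and -0.52 without F3-KO TAC replicate 3, and -0.37 with F3-KO TAC replicate 1 alone. The 4 genes above 0, named after their values were seen, were the acyl-CoA synthetases *Acsl4* (0.39) and *Acsl5* (0.46), *Acad12* (0.19) and *Crot* (0.01), of which *Acad12* and *Crot* changed sign with a heart left out.

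Genes of fatty acid uptake, trafficking and lipolysis, without *Fabp3*, had a median of -0.24 over 31 genes. Their responses were 0.22, -0.09 and -0.14 in WT and -0.24, -0.33 and -0.22 in F3-KO hearts and did not overlap, but WT heart 1 set much of the distance, and without it the median was -0.08. It was -0.37 without F3-KO TAC replicate 3. At an unadjusted p under 0.05 were *Cidea* (-0.53, SE 0.18) and *Fitm1* (-0.98, SE 0.36), both of the lipid droplet, and *Dgat2*, which makes triglyceride (-0.91, SE 0.41). The droplet coat gene *Plin5*, which links droplets to mitochondria, was at 179, 116 and 112 CPM in WT TAC and 73.998, 61.1 and 109 CPM in F3-KO TAC hearts (-0.66, SE 0.32). The uptake genes *Cd36* (-0.07, SE 0.32) and *Lpl* (0.03, SE 0.40) had interactions near 0, whose sign changed with the setting. *Fabp4*, a binding protein of fat cells and capillaries, gave -0.51 (SE 0.50). PPAR targets and regulators had a median of -0.11 over 30 genes (-0.22 without F3-KO TAC replicate 3, -0.03 without WT sham replicate 2), with *Acot2* at an unadjusted p under 0.05 (-0.86, SE 0.33). *Ppara*, the fatty acid receptor that turns on oxidation genes, was at 111, 90.6 and 130.3 CPM in WT sham and 133, 137 and 166 CPM in F3-KO sham hearts. TAC hearts held 84.022, 127 and 119 CPM in WT and 98.1, 94.6 and 108 CPM in F3-KO mice (-0.53, SE 0.25), and its coactivator *Ppargc1a* gave 0.04 (SE 0.32). For *Pdk4*, a PPAR target that blocks pyruvate oxidation, WT TAC hearts held 1651, 223 and 181 CPM and F3-KO TAC hearts 273, 120.1 and 197 CPM. Its interaction of -1.37 (SE 1.004) rested on WT TAC replicate 1 and was 0.39 without that heart.

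Genes of other fuels had smaller medians. Glycolysis, glycogen and glucose uptake genes had a median of -0.19 over 48 genes, made of -0.29 for 24 glycolysis genes and 0.07 for 10 glycogen genes among others. It was -0.07 without WT sham replicate 2, -0.29 without F3-KO TAC replicate 3 and -0.35 with F3-KO TAC replicate 1 alone. *Phka1*, a subunit of phosphorylase kinase, which starts glycogen breakdown, was above 0 (0.86, SE 0.23), since WT sham hearts held 58.5, 97.9 and 93.4 CPM and F3-KO sham hearts 43.1, 45.4 and 48.9 CPM while all 6 TAC hearts lay between 46.6 and 51.002 CPM. *Eno3* (-0.86, SE 0.25) and *Pgam2* (-0.58, SE 0.22), the muscle forms of enolase and phosphoglycerate mutase, were below 0. Ketone body and branched-chain amino acid genes had a median of -0.28 over 25 genes, yet *Bdh1*, the first enzyme of ketone oxidation, was at 110.5, 164 and 180.0 CPM in WT TAC and 198, 232 and 181 CPM in F3-KO TAC hearts and gave 0.47 (SE 0.33). That family median was -0.18 without F3-KO TAC replicate 2, -0.52 without F3-KO TAC replicate 3 and -0.46 with F3-KO TAC replicate 1 alone. Energy transfer and antioxidant genes had a median of -0.17 over 44 genes, -0.38 for 16 energy transfer genes and 0.01 for 28 antioxidant genes. *Ckm*, the muscle creatine kinase, gave -0.70 (SE 0.28), and *Ckmt2*, its mitochondrial relative, -0.43 (SE 0.26). Hearts responded by -0.04, 0.01 and 0.10 in WT and -0.08, -0.08 and -0.05 in F3-KO mice, side by side without overlap. The median was -0.07 without F3-KO sham replicate 3 and -0.26 with F3-KO TAC replicate 1 alone.

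Adult sarcomere and Z-disc genes had a median of -0.19 over 24 genes, made of -0.58 for 6 thin filament genes, -0.22 for 8 thick filament genes and 0.21 for 10 Z-disc genes. *Tnnc1*, the calcium sensor of the thin filament, was at 2297, 1858 and 1925 CPM in WT sham and 2974, 2499.7 and 2685 CPM in F3-KO sham hearts. After TAC the WT hearts held 2845, 3407 and 3191 CPM and the F3-KO hearts 2648, 2272 and 2959 CPM, an interaction of -0.69 (SE 0.23). *Tpm1*, tropomyosin, gave -0.75 (SE 0.27), the light chain *Myl3* -0.74 (SE 0.30) and the adult heavy chain *Myh6* -0.95 (SE 0.41). For *Myh6* the F3-KO TAC hearts (21214, 14448 and 15893 CPM) lay partly below WT TAC hearts (25916, 34421 and 20411 CPM), and WT sham replicate 2 was low at 16252 CPM among sham hearts of 31157 CPM or more. The family median was -0.07 without that heart, -0.40 without F3-KO TAC replicate 3 and -0.49 with F3-KO TAC replicate 1 alone. The differences between the parts were not tested, and the thick filament median moved from -0.68 to -0.06 with these 2 single hearts left out. The Z-disc median was 0.05 with F3-KO TAC replicate 1 alone.

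Natriuretic peptides and fetal contractile genes had a median of 0.10 over 26 genes, and it changed sign with the heart left out (-0.15 without WT sham replicate 3, 0.30 without WT sham replicate 2, and -0.21 with F3-KO TAC replicate 1 alone). *Nppa*, the atrial natriuretic peptide, held 1114, 143 and 614 CPM in WT TAC and 153, 3841 and 1019.9 CPM in F3-KO TAC hearts, and its interaction of 0.43 (SE 1.34) ranged from -1.08 to 1.15 with 1 heart left out. The value of 3841 CPM is that of F3-KO TAC replicate 2, which also held other atrial markers. The part of atrial tissue in the values of this family was not tested. *Nppb*, the brain natriuretic peptide, had 776, 411 and 589 CPM and 626, 647 and 584 CPM (-0.75, SE 0.39). The TAC response was larger in WT hearts for *Nppb* (2.23 against 1.48), with F3-KO sham hearts already higher (311, 181 and 172 CPM against 128, 95.048 and 155 CPM). *Acta1*, skeletal actin, had 3202, 762 and 800.0 CPM in WT TAC and 3564, 3566 and 3044 CPM in F3-KO TAC hearts (-0.75, SE 0.88). *Myh7*, the fetal heavy chain, ranged from 174 to 23126 CPM within the F3-KO TAC group and from 347 to 9179 CPM among WT sham hearts, and its interaction was 3.42 (SE 1.93). The stress genes had a median of 0.67 over 11 genes, with 3 above 0 at an unadjusted p under 0.05 (2.31% of all genes). F3-KO TAC replicate 2 carried that median: it was 0.11 without that heart and 0.13 with F3-KO TAC replicate 1 alone. *Xirp2*, an actin-binding protein of the intercalated disc, had 519.8, 379 and 488 CPM in WT sham and 373, 486 and 301 CPM in F3-KO sham hearts. TAC hearts held 771, 423 and 904 CPM in WT and 1357, 2505 and 1173 CPM in F3-KO mice, every F3-KO heart above every WT heart, with an interaction of 1.52 (SE 0.46). *Fhl1* (0.82, SE 0.32), a stretch-responsive LIM protein, and *Nmrk2* (0.73, SE 0.31), a kinase of NAD synthesis, were the other 2.

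Potassium channel genes, which shape repolarization, had a median of -0.21 over 25 genes, 20 of them below 0. It was -0.37 without WT sham replicate 3, -0.13 without WT sham replicate 2 and -0.22 with F3-KO TAC replicate 1 alone. *Kcna5*, a channel of the ultrarapid current, was at 39.1, 47.1 and 35.7 CPM in WT sham and 78.9, 52.9 and 62.9 CPM in F3-KO sham hearts, and at 73.4, 54.9 and 51.3 CPM and 56.8, 41.3 and 41.6 CPM after TAC (-1.04, SE 0.28). *Kcnip2*, the partner of the transient outward channel, gave -1.02 (SE 0.36): F3-KO TAC hearts were at 159, 140.5 and 137 CPM and WT TAC hearts at 163, 279 and 236 CPM. *Kcnd2*, a pore subunit of that channel, lay on the other side of 0 (0.62, SE 0.37). All 3 F3-KO responses were below all 3 WT responses for *Kcna5* and *Kcnip2*, and overlapped for *Kcnd2*.

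On the higher side, the matrix families had large medians and larger spreads. Collagens had a median of 0.46, with 22 of 26 genes above 0, matricellular and other glycoproteins 0.58 (31 of 41), and matrix enzymes with small proteoglycans 0.47 (36 of 46). Both genotypes responded upwards: the median TAC response of collagens was 0.89 in WT and 1.36 in F3-KO hearts. Yet 0 of 26 collagens had responses without overlap between the genotypes, and 0 were at an unadjusted p under 0.05. By heart, collagens responded by 1.46, 0.71 and -0.05 in WT and 1.49, 2.04 and -0.16 in F3-KO mice. Hearts 1 and 2 of each genotype were high and heart 3 of each was near 0. The median was 1.05 without WT TAC replicate 1, and -0.02 without F3-KO TAC replicate 2. It was 0.63 with F3-KO TAC replicate 1 alone. Without F3-KO TAC replicate 2 the other matrix medians went the same way, to -0.04 for matricellular and other glycoproteins and 0.04 for matrix enzymes with small proteoglycans. The glycoprotein median was 0.91 without WT TAC replicate 1, and with F3-KO TAC replicate 1 alone these 2 families had 0.37 and 0.35.

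*Col1a1*, the main fibrillar collagen, shows this at the level of counts: WT TAC hearts held 466, 270.5 and 75.2 CPM and F3-KO TAC hearts 656, 1529 and 103 CPM, with an interaction of 0.85 (SE 1.06). *Postn*, the periostin of activated fibroblasts, had 361, 39.015 and 24.4 CPM and 537, 1221 and 40.7 CPM (0.61, SE 1.44). The third heart of both genotypes looked like a sham heart in both genes, whose sham values were 89.5, 75.6 and 90.4 and 189.5, 118 and 91.1 CPM for *Col1a1* and 21.8, 16.2 and 19.4 and 63.7, 58.2 and 36.7 CPM for *Postn*. A few matrix genes were more even across hearts. *Wisp2*, a matricellular protein of the CCN family, had 18.3, 9.78 and 10.2 CPM in WT TAC and 23.8, 42.9 and 27.1 CPM in F3-KO TAC hearts, every F3-KO heart above every WT heart (1.47, SE 0.47). *Fbln1*, fibulin-1, had 139.7, 182 and 152 CPM in WT sham and 104, 85.4 and 84.2 CPM in F3-KO sham hearts and 101, 109.9 and 115 and 75.4, 141 and 127 CPM after TAC (0.87, SE 0.29). *Adamts1*, a protease that cuts proteoglycans, lay below 0: 44.972, 36.9 and 47.046 CPM in WT sham, 78.7, 67.5 and 59.7 CPM in F3-KO sham, 106, 84.9 and 85.2 CPM in WT TAC and 96.1, 66.2 and 73.7 CPM in F3-KO TAC hearts (-0.90, SE 0.24). *Serpine2*, a protease inhibitor, was above 0 (1.09, SE 0.40). Summed fibroblast markers were 2860.0 to 4619 CPM in WT TAC and 3362 to 9021 CPM in F3-KO TAC hearts, with the highest in F3-KO heart 2, and their part in the matrix values was not tested. TGF-beta and BMP genes had a median of 0.07 over 33 genes (-0.03 without F3-KO TAC replicate 2), and the ligand *Tgfb3* gave 0.95 (SE 0.43), of which 0.39 was left without F3-KO TAC replicate 2.

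Cell cycle genes had the highest median among the 29 families, 0.66 over 44 genes, 40 of them above 0, from a median TAC response of 1.75 in WT and 2.38 in F3-KO hearts. The hearts of each genotype were far apart: 2.19, 1.09 and -0.35 in WT and 3.004, 1.89 and -0.54 in F3-KO hearts. In both, replicate 1 was highest and replicate 3 was below its shams. *Mki67*, the proliferation antigen, had 38.5, 7.49 and 0.80019 CPM in WT TAC and 99.9, 35.2 and 1.24 CPM in F3-KO TAC hearts (1.19, SE 1.84). Leaving out heart 1 of the F3-KO TAC group gave a family median of -0.28, and leaving out heart 1 of the WT TAC group gave 1.72, a range that spans 0. With F3-KO TAC replicate 1 alone it was 1.56. Of the 44 genes, 1 was at an unadjusted p under 0.05, *Ccne2*, a cyclin of the entry into DNA replication (1.56, SE 0.61), at 1.57, 2.03 and 1.3003 CPM in WT TAC and 5.24, 4.02 and 1.73 CPM in F3-KO TAC hearts.

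**Figure D4:**
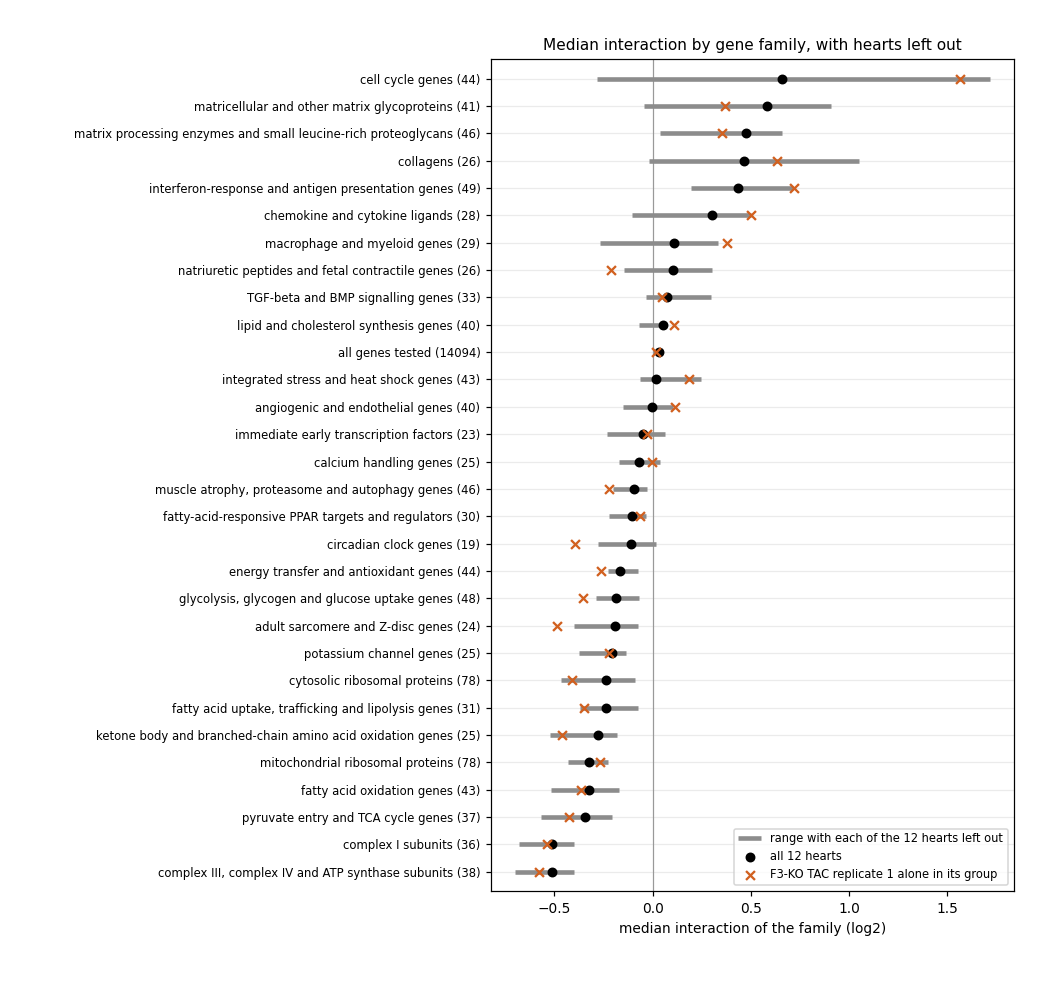
Median interaction (horizontal axis, log2) of 29 families and of all genes with all 12 hearts (black), with each heart left out in turn (grey range) and with F3-KO TAC replicate 1 alone in its group (orange). The ranges of the mitochondrial families at the bottom stay below 0, and those of cell cycle genes (-0.28 to 1.72) and collagens (-0.02 to 1.05) cross it.

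Interferon-response and antigen presentation genes had a median of 0.43 over 49 genes, 40 of them above 0, and kept their sign with each heart left out (0.19 without WT TAC replicate 3, 0.72 without WT TAC replicate 1) and with F3-KO TAC replicate 1 alone (0.72). All 14 tested genes of the interferon-gamma response lay above 0, with a median of 1.07, and 0 of them were at an unadjusted p under 0.05. Their mean response was 0.88, 0.85 and -0.27 in WT and 1.39, 0.13 and 2.45 in F3-KO hearts. F3-KO hearts 1 and 3 were thus above all WT hearts and F3-KO heart 2 was not, the reverse of the order seen for collagens. Without F3-KO TAC replicate 3 the median was 0.26. *Iigp1*, an interferon-inducible GTPase, had 278, 247 and 83.5 CPM in WT TAC and 681, 74.4 and 864 CPM in F3-KO TAC hearts (1.71, SE 0.94), and *Gbp4*, a guanylate-binding protein, 131, 52.9 and 33.5 and 78.2, 35.4 and 439 CPM (2.11, SE 1.06); both were chosen after their values were seen. Among type I interferon genes *Ifit3* gave 0.41 (SE 0.50) and *Isg15* 0.11 (SE 0.62), the latter with a sign that changed with the heart left out. The only gene of the family at an unadjusted p under 0.05 lay below 0: *Ifi27*, at 16.6, 32.4 and 29.5 CPM in WT sham, 78.6, 88.5 and 66.3 CPM in F3-KO sham, 32.5, 33.8 and 25.6 CPM in WT TAC and 46.6, 32.2 and 49.9 CPM in F3-KO TAC hearts (-1.09, SE 0.34).

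Chemokine and cytokine ligands had a median of 0.30 over 28 genes and macrophage and myeloid genes 0.11 over 29, and neither had a gene at an unadjusted p under 0.05. Without WT sham replicate 2, whose mean for macrophage genes lay 0.64 above its group mean, these medians were -0.11 and -0.27. Immediate early transcription factors, which follow acute stimuli, had a median of -0.05 over 23 genes with 2 at an unadjusted p under 0.05 on each side. *Fos* had 8.84, 11.4 and 21.4 CPM in WT sham and 4.32, 2.68 and 3.76 CPM in F3-KO sham hearts, 3.69, 3.88 and 4.5011 CPM in WT TAC and 12.978, 4.34 and 2.23 CPM in F3-KO TAC hearts. Its interaction of 2.65 (SE 0.75) drew on high WT sham values and on F3-KO TAC replicate 1, and was 1.67 without F3-KO TAC replicate 1. *Maff* lay below 0 (-1.17, SE 0.35). Heat shock genes had a median of -0.06 over 21 genes, although the cytosolic chaperone *Hsp90aa1* had 133, 118 and 186 CPM in WT TAC and 236, 248 and 161 CPM in F3-KO TAC hearts (0.90, SE 0.30).

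Cytosolic ribosomal protein genes had a median of -0.24 over 78 genes, 72 of them below 0, and 1 at an unadjusted p under 0.05. WT sham replicate 2 decided the size: its mean lay 0.44 above the WT sham mean, and the median was -0.47 without it and -0.09 without WT sham replicate 3. The 1 gene, above 0 unlike the family, was *Rps12* (3.29, SE 1.23), which ranged from 1.32 to 46.4 CPM over the 12 hearts and is uncertain. Genes of this family have many processed copies that can share reads, and their part in this value was not tested. The remaining families had medians between -0.11 and 0.05: circadian clock genes, muscle atrophy, proteasome and autophagy genes, calcium handling genes, angiogenic and endothelial genes, and lipid and cholesterol synthesis genes. Calcium handling genes, *Atp2a2* (-0.24, SE 0.35) and *Pln* (-0.14, SE 0.33) among them, and lipid and cholesterol synthesis genes had 0 genes at an unadjusted p under 0.05. With library totals the medians of circadian, atrophy, calcium handling, angiogenic, PPAR target and immediate early genes turned to between 0.02 and 0.13, still below the median of all genes on that scale.

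Families formed from symbols alone, by the letters before the first digit in at least 15 tested genes, gave 79 groups. The 5 with the highest medians were *Col* (0.40, 33 genes), *Kif* (0.27, 34 kinesins), *Ifi* (0.25, 15 interferon-induced genes), *Clec* (0.23, 19 lectins) and *Myo* (0.21, 17 genes). The 5 with the lowest were *Cox* (-0.40, 25 genes), *Mrps* (-0.32, 29), *Mrpl* (-0.31, 49), *Rpl* (-0.24, 49) and *Smim* (-0.15, 16).

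Single hearts weighed unequally on the interaction. The mean absolute response over all genes was 0.465, 0.321 and 0.282 on the log2 scale in WT TAC hearts and 0.471, 0.471 and 0.353 in F3-KO TAC hearts. WT heart 1 thus departed from its shams as far as F3-KO hearts 1 and 2, and F3-KO heart 3 was closer to WT hearts 2 and 3. The number of genes at an unadjusted p under 0.05 was 1127 without WT TAC replicate 1 and 1404 without F3-KO TAC replicate 3, against 632 with all hearts. It was 397 without F3-KO sham replicate 3 and 523 to 687 without any of the other 9. In limma-voom the sample weights of WT TAC replicate 1 (0.422), F3-KO TAC replicate 3 (0.354) and WT sham replicate 2 (0.559) were the lowest of 12. Of the 632 genes, 517 were still at an unadjusted p under 0.05 without F3-KO TAC replicate 3, and 322 without F3-KO sham replicate 3. All 632 kept their sign in all 12 fits. They were chosen by p in these same hearts, most of which enter each fit, so a sign change was unlikely in advance. With F3-KO TAC replicate 1 alone in its group, 1033 genes were at an unadjusted p under 0.05 and 0 were called.

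**Figure D5:**
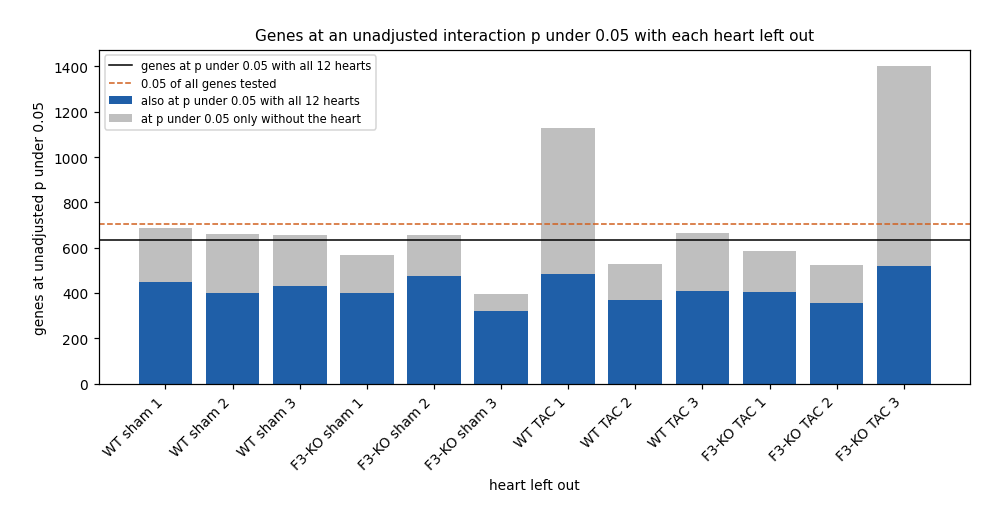
Number of genes at an unadjusted interaction p under 0.05 (vertical axis) with each heart left out (horizontal axis), split into genes that are also there with all 12 hearts (blue) and genes that are not (grey), with the number for all hearts (632, black line) and 0.05 of all genes tested (704.7, dashed line). The bars for WT TAC 1 (1127) and F3-KO TAC 3 (1404) stand above both lines.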

How the data were processed

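RNA sequencing of 12 hearts was deposited as 1 table of 19308 genes by 12 hearts and as 1 table per heart, of which 11 equal the joint columns and the other breaks off early in the copy used here. The values are estimated counts: 40.6% of those deposited are not whole numbers. Per the labels and the study's methods, the authors removed adapter and low-quality reads with SOAPnuke, and the submitters' processing notes name HISAT2 2.0.4, STAR 2.3.0, DESeq2 and the builds mm8 and mm9. The counting tool, annotation and strand setting are not given in the sources used here, so no coordinates are printed. The study describes the 3 hearts of a group as biological replicates.

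Counts were rounded to whole numbers, and genes were kept by edgeR's filterByExpr with a minimum count of 10, which left 14094 genes; the 5214 removed held 0.0773% of counts. Totals of 10424334 to 14372011 counts make 3 counts equal to 0.209 to 0.288 CPM by library total, which covers counting error only. Versions were 1.42.0 for DESeq2, 3.58.1 for limma, 4.0.16 for edgeR and 4.3.3 for R. A quasi-likelihood model with 4 group means and TMM factors was fitted to all genes, and the interaction tested with Benjamini-Hochberg adjustment at 0.05, two-sided. Scripts were tested on simulated data. CPM in the text use TMM library sizes and a prior count of 2 on the log2 scale. Cell type marker sums and the single markers printed beside them use library totals. Symbols of 18225 genes matched RefSeq. Same-numbered hearts were checked for pairing and, since correlations of some were under 0.1, were not treated as pairs. Alternatives were DESeq2 size factors, library totals, no filter, at least 10 counts in every library, the replicate block, DESeq2's Wald test, limma-trend, limma-voom with sample weights, and leaving out each heart. The members and gene lists were chosen with earlier results of these data known. Named genes were *Fabp3*, genes with an adjusted p under 0.05, the 10 lowest p in each direction with a mean of at least 1 CPM, anchor genes of each family, and up to 3 genes of lowest unadjusted p (under 0.05) of a family; the text gives those that bear on its families. No sequences are printed, and 1 gene of the named-genes rule is not reported here.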

Additional observations from a re-analysis of the deposited data

How the results depend on the processing

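The number of genes called for the interaction was 0 with edgeR under TMM factors, DESeq2 size factors, library totals, no filter, a stricter filter and the replicate block, and 0 with limma-voom weights, but 6 with the DESeq2 Wald test and 1 with limma-trend. It ranged from 0 to 4 with 1 heart left out, the 4 without F3-KO TAC replicate 1. The number at an unadjusted p under 0.05 was 632, ranged from 397 to 1404 with 1 heart left out, and was 1453 with limma-voom weights and 1033 with F3-KO TAC replicate 1 alone, an alternative added after the data were seen. Same-numbered hearts gave correlations of deviations from -0.141 to 0.362 over 18 pairs. Those of WT TAC with F3-KO TAC hearts were all above 0 (0.0611 to 0.362), and 6 of 12 hearts correlated best with their own number. Not every pair was over 0.1, so the numbers were not taken as pairs, and with the replicate block 634 genes were at an unadjusted p under 0.05. Of 29 family medians, 8 changed sign under another setting than leaving out a heart, and 27 kept theirs with F3-KO TAC replicate 1 alone. With a heart left out, 14 of the medians below 0 kept their sign. Of those above 0, only matrix enzymes with small proteoglycans and interferon-response genes did. Of 98 genes named with an interaction, 15 changed sign with a heart left out: from -0.15 to 0.40 for *Acad12*, from -1.09 to 0.28 for *Acta1*, from -0.28 to 0.15 for *Cd36*, from -0.17 to 1.498 for *Col1a1*, from -0.13 to 0.10 for *Crot*, from -0.73 to 0.043 for *Fabp4* and from -0.58 to 0.42 for *Isg15*, and from -0.43 to 0.23 for *Lpl*, from -0.11 to 3.09 for *Mki67*, from -0.11 to 0.17 for *Mrpl50*, from -1.08 to 1.15 for *Nppa*, from -2.02 to 0.39 for *Pdk4*, from -0.35 to 0.083 for *Pln*, from -0.45 to 2.77 for *Postn* and from -0.14 to 0.34 for *Ppargc1a*. Other settings that changed a sign gave 0.041 for *Cd36* with library totals, -0.015 for *Isg15*, -0.034 for *Lpl* and -0.33 for *Nppa* with limma-trend, -0.085 for *Acad12*, 0.38 for *Acta1*, -0.28 for *Lpl* and -0.053 for *Mrpl50* with limma-voom weights, and -0.37 for *Acad12*, -0.099 for *Crot*, -0.40 for *Lpl*, -0.015 for *Mrpl50*, -2.49 for *Myh7*, -3.02 for *Nppa* and -0.020 for *Ppargc1a* with F3-KO TAC replicate 1 alone. The causes were not tested. With 3 hearts a group and a median SE of 0.29, interactions of a size common in these data could not be told from 0.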

Other observations

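Red blood cell markers had the lowest median interaction of the 15 cell type marker lists with a tested gene, and no family of the main text holds them. All 8 markers, among them the globins and *Alas2*, the first enzyme of heme synthesis in red cells, lay below 0 and at an unadjusted p under 0.05 (2.18% of all genes were there on the lower side), with a median interaction of -3.39, and 0 were called by edgeR. Their median TAC response was 1.02 in WT and -2.41 in F3-KO hearts. By heart the mean responses were 2.13, 0.88 and -2.10 in WT and -1.94, -1.97 and -2.99 in F3-KO hearts, so WT heart 3 lay among the F3-KO hearts. The summed level, in CPM by library total, was 657 to 1745 in WT sham, 1075 to 4520.0 in F3-KO sham, 299 to 4374 in WT TAC and 367 to 982 in F3-KO TAC hearts. The groups overlapped in these sums. The median ranged from -3.93 to -2.41 with 1 heart left out. How much blood each heart held was not tested.

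The 4 genes called by edgeR without F3-KO TAC replicate 1 were *Sftpc*, *Sftpa1*, *Scgb1a1* and *Bpifb1*, all of lung and airway epithelium. *Scgb1a1*, the club cell secretory protein, rounded to 0 counts in F3-KO TAC replicates 2 and 3 and had 199 to 309 counts in the other 10 hearts. *Sftpc*, the surfactant protein of alveolar cells, rounded to 0 counts in the same 2 hearts and had 74 to 116 counts elsewhere. F3-KO TAC replicate 1 had 309 counts of *Scgb1a1*, the most of any heart, and 102 of *Sftpc*. With all 12 hearts neither had an unadjusted p under 0.05 in edgeR.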
